A study of Mus musculus with 6 samples.

Results

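The 8 genes described here are Mmp13, Mmp12, Mmp3, Mmp10, Mmp8, Mmp9, Mmp2 and Mmp14, matrix metalloproteinases found by symbol among the 54446 gene rows of a TPM table of mouse cornea. They were taken as a listed set around Mmp13, the protease named in the study's title, with earlier results of these data known. RNA was sequenced from corneas of wild-type mice of the C57BL/6 strain, 6 weeks old, in 3 groups of 2 samples: unwounded corneas, wounded corneas, and wounded corneas whose eyes also received RNase III, an enzyme that cuts double-stranded RNA, under the conjunctiva. Surgery had taken away a part of the limbus, the corneal epithelium and some stroma. The time between wounding and sampling is not given in the sources used here, nor is it stated whether wounded corneas had a control injection or whether samples came from separate animals, so the p-values cover only how these samples spread. TPM is a length-corrected share of a library's transcripts, which lets levels be compared between genes but keeps no read depth, so the depth is unknown.

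Matrix metalloproteinases are zinc-dependent enzymes that cut proteins of the extracellular matrix. Most are secreted with a prodomain that keeps them inactive until another protease removes it, and tissue inhibitors (TIMPs) bind the active enzymes. In the cornea they take part in the movement of epithelium over a wound, in the remodelling of basement membrane and stromal collagen, and, in excess, in ulceration. Mmp13 and Mmp8 are collagenases, Mmp3 and Mmp10 stromelysins with broad substrate ranges, and Mmp12 the elastase of macrophages. Mmp9 and Mmp2 are gelatinases, and Mmp14 is anchored in the cell membrane, where it activates the Mmp2 proenzyme.

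Of these genes, 5 lie in 1 cluster on chromosome 9 within 296.0 kb, all on the plus strand of GRCm38, the assembly that mm10 denotes. Mmp13 (ENSMUSG00000050578) spans 7272514 to 7283331, Mmp12 (ENSMUSG00000049723) 7344381 to 7369499 and Mmp3 (ENSMUSG00000043613) 7445822 to 7455975. Mmp10 (ENSMUSG00000047562) spans 7502352 to 7510240 and Mmp8 (ENSMUSG00000005800) 7558456 to 7568485. The other 3 are also on plus strands: Mmp9 (ENSMUSG00000017737) on chromosome 2 from 164940780 to 164955850, Mmp2 (ENSMUSG00000031740) on chromosome 8 from 92827291 to 92853420, and Mmp14 (ENSMUSG00000000957) on chromosome 14 from 54431612 to 54445364. Mmp3 and Mmp10 share sequence: 11.4% of the 31-base words of Mmp3 transcripts also occur in those of Mmp10, and 11.9% in the other direction, so their levels are less certain than the rest. Mmp12 overlaps Mmp1b, on the opposite strand, by 1261 bases, and it is not stated whether reads were counted by strand. No 31-base word of Mmp13, Mmp8, Mmp9, Mmp2 or Mmp14 was found in another gene of the family.

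The promoters of 6 members are shown because 4 of the 5 cluster genes carry the same short form close to their start sites. RefSeq's promoter table (GRCm38.p6) matched 6 of the 8 members; Mmp2 and Mmp9 were not matched. Each line gives the 150 bases before the annotated start, 5′ to 3′ on the plus strand, at chr9:7272364-7272513, chr9:7347224-7347373, chr9:7445672-7445821, chr9:7502192-7502341, chr9:7558279-7558428 and chr14:54431448-54431597. Capitals mark 4 forms searched on both strands of the 250 bases before each start: TGANTCA, which AP-1 factors bind; TATAAA, the TATA box; AACCACA, a form bound by Runx factors; and a form of the interferon-stimulated response element, GAAA and GAAA with any 2 bases between.
Mmp13: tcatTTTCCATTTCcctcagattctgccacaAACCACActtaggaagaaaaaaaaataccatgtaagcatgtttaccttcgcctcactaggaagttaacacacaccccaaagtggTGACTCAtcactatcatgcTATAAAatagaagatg
Mmp12: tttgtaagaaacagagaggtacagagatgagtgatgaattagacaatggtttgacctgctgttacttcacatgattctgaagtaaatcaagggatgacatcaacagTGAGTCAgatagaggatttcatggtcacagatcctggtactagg
Mmp3: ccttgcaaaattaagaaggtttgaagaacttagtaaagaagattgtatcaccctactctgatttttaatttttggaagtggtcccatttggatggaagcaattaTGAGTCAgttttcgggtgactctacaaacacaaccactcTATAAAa
Mmp10: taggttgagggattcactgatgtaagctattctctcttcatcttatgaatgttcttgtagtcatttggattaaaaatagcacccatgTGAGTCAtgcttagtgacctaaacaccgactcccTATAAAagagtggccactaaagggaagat
Mmp8: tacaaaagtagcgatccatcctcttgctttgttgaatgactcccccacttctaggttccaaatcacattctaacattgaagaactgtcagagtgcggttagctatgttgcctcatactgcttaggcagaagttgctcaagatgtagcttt
Mmp14: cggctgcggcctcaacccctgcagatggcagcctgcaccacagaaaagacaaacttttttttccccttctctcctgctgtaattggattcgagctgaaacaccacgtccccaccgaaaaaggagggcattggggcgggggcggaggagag
TGANTCA was found once each upstream of Mmp13, Mmp12, Mmp3 and Mmp10, beginning 35, 44, 46 and 63 bases before the start, and not in the windows of Mmp8 and Mmp14. It occurs in 6.75% of 32851 promoters of the same length. TATAAA stood between that form and the start in Mmp13, Mmp3 and Mmp10, and 12.4% of all promoters hold it. Both forms together occur in 1.21% of promoters. Of the members, Mmp13 was the one with AACCACA, beginning 119 bases before the start, and with the interferon response form, beginning 146 bases before it and read on the minus strand. These forms occur in 4.4% and 2.98% of all promoters. No matches overlapped each other, and a second annotated start of Mmp12, farther upstream, had none of the 4 forms. A match says only that these letters are present.

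**Figure D1:**
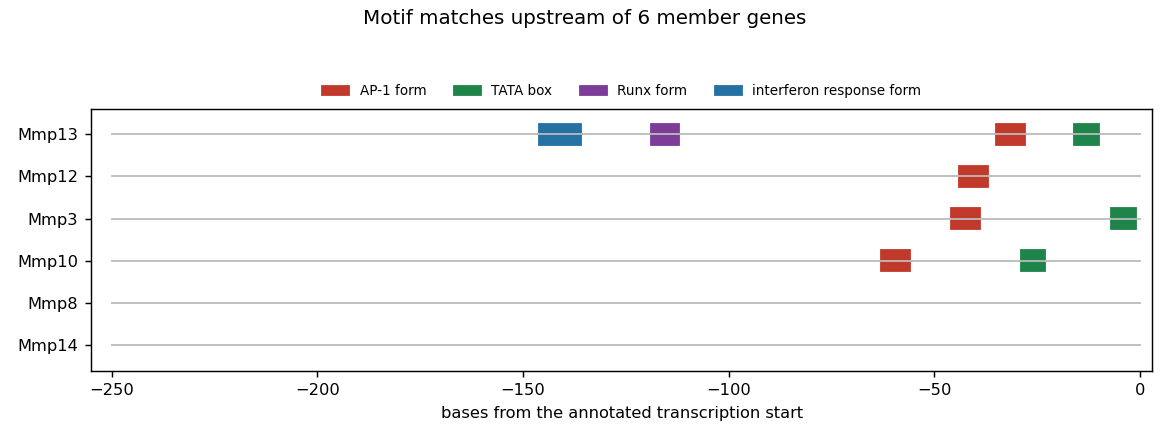
Matches to 4 short forms in the 250 bases before the annotated start of 6 member genes, drawn to scale with the start at 0; Mmp12 is shown from its downstream start. The AP-1 form lies 35 to 63 bases before the start of Mmp13, Mmp12, Mmp3 and Mmp10, and the windows of Mmp8 and Mmp14 are empty.

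Libraries held the transcripts of cornea, with the corneal keratin gene Krt12 between 11217 and 19636 TPM in each. Between 16751 and 21033 genes were above 0, the fewest in RNase III replicate 1. Wounded replicate 1 stood apart by its neutrophil markers, 12 genes that summed to 9148 TPM there and to 551 TPM in wounded replicate 2, against 65.0 and 114 TPM in unwounded and 1520 and 1501 TPM in RNase III corneas. RNase III replicate 2 held lens transcripts, with 1281.15 TPM of the crystallin gene Cryaa where RNase III replicate 1 had 1.07 TPM. With 2 samples in a group the smallest two-sided p of an exact permutation test is 0.333, so limma, which pools the spread over genes and the 3 groups, was used on log2(TPM + 1) for the 14748 genes that reached 1 TPM in 2 or more samples. Fold changes on that scale understate the change of low genes.

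In unwounded cornea, Mmp14, Mmp3 and Mmp2 made up nearly the whole set. Mmp14 had 111.8 and 102.21 TPM, Mmp3 97.68 and 30.2 TPM, and Mmp2 66.21 and 51.17 TPM, so that Mmp3 and Mmp2 overlapped and did not differ beyond their spread. The other 5 were close to absent: Mmp12 had 1.11 and 0.66 TPM, Mmp10 1.07 and 0.58, Mmp9 0.57 and 0.53, and Mmp13 0.39 and 0.32, while Mmp8 was listed at 0 in both. Mmp3 differed more between the unwounded libraries, 3.23-fold, than Mmp14 (1.09-fold) or Mmp2 (1.29-fold).

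After the wound all 8 were higher in both libraries than in both unwounded ones. Over all genes tested, 25.3% lay higher without overlap and 46.8% lower. Of the 7 that could be tested, Mmp13, Mmp12, Mmp3, Mmp10 and Mmp9 rose, where 6.12% of all genes rose and 9.83% fell (902 and 1450 genes, or 1486 and 1045 with median-of-ratios scaling, which moved the median of all genes from -0.26 to -0.03). Mmp13, Mmp12, Mmp10 and Mmp9 reached the filter on low values through the injured libraries, so they had to differ in some measure. The counts of 8 and 5 are therefore descriptions, and Mmp8 is not among the genes tested. Fewer cells of a type and less RNA per cell cannot be told apart in these bulk samples.

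The collagenases come first. Mmp13 stood at 118.3 and 32.46 TPM in wounded corneas, 1 library being 3.64 times the other, and both were far above the unwounded level. Its rise was 5.54 on the log2 scale (SE 0.55, 95% interval 4.22 to 6.87, limma adjusted p = 0.0076). Mmp8, the collagenase best known from neutrophils, reached 5.99 TPM in wounded replicate 1 but 0.54 TPM in the other. It did not reach 1 TPM in a second sample and so was not tested; without a filter its limma adjusted p was 0.241. Wounded replicate 1 was also the library with the highest sum of neutrophil markers. Of 12 neutrophil markers 8 were tested, all with positive wound differences, and 4 rose and none fell. With median-of-ratios scaling 1 of these 4 calls was lost. Mpo and Elane, of the same list, were listed at 0 in all 6 libraries. Mmp8 did not follow the marker sum in the other injured libraries. Wounded replicate 2 had 551 TPM of markers, and the RNase III libraries had 1520 and 1501 TPM with 0.09 and 0.93 TPM of Mmp8. The part of neutrophils in the Mmp8 value was not tested.

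The stromelysins and the elastase had the same order of libraries. Mmp3 had 2066.02 and 330.12 TPM after the wound and became the most abundant member in both libraries, with a rise of 3.90 (SE 0.89, interval 1.78 to 6.02, limma adjusted p = 0.0357). Mmp10 had 60.38 and 20.86 TPM and rose by 4.34 (SE 0.49, interval 3.16 to 5.52, adjusted p = 0.00998). Mmp12 had 275.55 and 35.73 TPM and rose by 5.75, with the interval 3.08 to 8.42 (SE 1.12, adjusted p = 0.0267). Wounded replicate 1 held the higher value of all 8 members. Macrophage markers, 12 genes, summed to 700 and 586 TPM in the wounded libraries against 199 and 118 TPM in unwounded ones, with 5 of 11 tested that rose and none that fell, and none of the 12 at 0 in either group. Their part in the Mmp12 rise was not tested. Markers of wound edge epithelium, 8 genes, were also higher after the wound: 6 rose and none fell. Their sum went from 6670 and 5610 TPM to 19642 and 17970 TPM. The chromosome 9 members summed to 2526 and 420 TPM in the same wounded libraries. The part of wound edge epithelium was likewise not tested.

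The other 3 members lie outside chromosome 9. Mmp9, a gelatinase of healing corneal epithelium and of white blood cells, had 11.76 and 4.11 TPM after the wound and rose by 2.38 (SE 0.46, interval 1.29 to 3.47, limma adjusted p = 0.0259). Mmp2, a gelatinase of stromal cells, went from 58.7 ± 10.6 to 121 ± 21.6 TPM (SD, n = 2), a difference of 1.03 that did not pass (interval -0.17 to 2.24, limma adjusted p = 0.185). Mmp14 went from 107 ± 6.78 to 171 ± 41.0 TPM (SD, n = 2), a difference of 0.65 that did not pass either (interval -0.02 to 1.32, limma adjusted p = 0.144). The intervals of Mmp2 and Mmp14 lie below those of Mmp13 and Mmp10; the differences between genes were not tested. With the 3 groups reduced to the 2 compared, Mmp2 passed (limma adjusted p = 0.0358) and Mmp3 did not (adjusted p = 0.0537).

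Several calls did not survive the loss of 1 library. Without either unwounded library, where that group is left with 1 sample assumed to vary like the others, none of the 5 calls remained (limma adjusted p from 0.0716 to 0.221) although the log2 rise of Mmp13 was 5.58 or 5.51 and that of Mmp9 2.40 or 2.36, and the calls over all genes fell from 2352 to 25 or 26. Without wounded replicate 1 the log2 rises of Mmp12, Mmp3 and Mmp9 were 4.29, 2.58 and 1.72 and their calls were lost (limma adjusted p = 0.132, 0.141 and 0.108), Mmp13 and Mmp10 still passed (adjusted p = 0.0187 and 0.0452), and 71 genes were called in all.

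**Figure D2:**
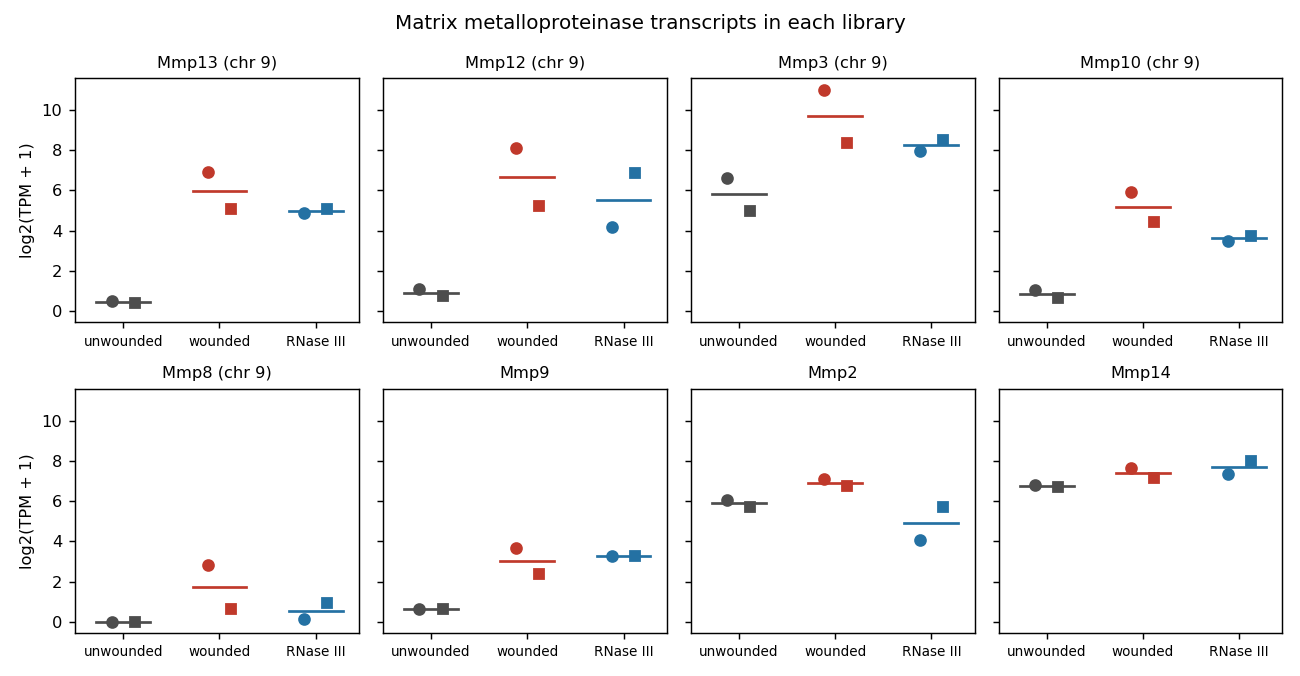
Level of each of the 8 genes as log2(TPM + 1) in the 6 libraries, with replicate 1 as circles, replicate 2 as squares and the group mean as a line; panels marked chr 9 are the cluster genes. Mmp13, Mmp12, Mmp10, Mmp9 and Mmp8 start near 0 in unwounded corneas, and Mmp2 is the member with an RNase III library below both unwounded ones.

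The wound changed the mix as well as the amount. The 8 genes summed to 279 and 186 TPM in unwounded corneas and to 2875 and 672 TPM in wounded corneas. Chromosome 9 genes made up 36.0% and 17.1% of that sum before and 87.9% and 62.5% after the wound. Most of this was Mmp3, at 35.0% and 16.3% before and 71.9% and 49.1% after. Mmp14 fell back as a share, from 40.1% and 55.1% to 6.97% and 21.2%, although its own TPM did not go down. Per Mmp14 transcript there were 0.00349 and 0.00313 of Mmp13 in unwounded corneas and 0.591 and 0.228 in wounded corneas.

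**Figure D3:**
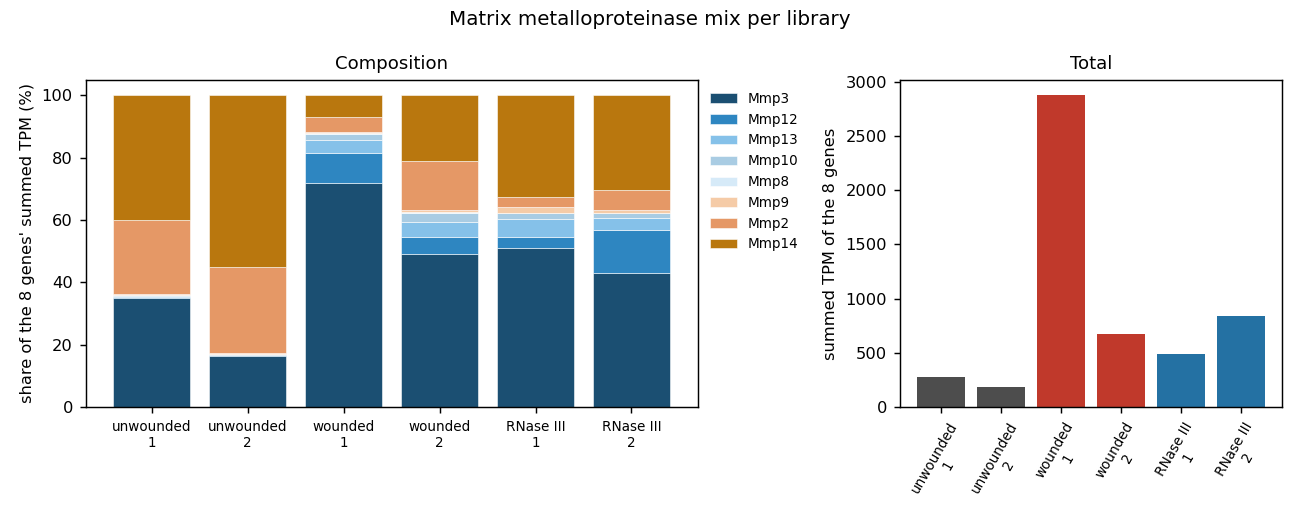
Left, the share of each gene in the summed TPM of the 8 genes per library, in percent, with chromosome 9 genes in blue and the others in orange; right, that sum in TPM. The blue share is 36.0% and 17.1% in unwounded libraries and between 62.3% and 87.9% in the other 4.

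Genes that flank the cluster on chromosome 9 were compared with it. Of 8 listed genes flanking the cluster 7 were tested: Tmem123, Pdgfd, Birc2 and Yap1 fell and Dcun1d5 rose by 0.89 (limma adjusted p = 0.0389), with a median of -1.06 beside -0.26 for all genes. Of these 7, 5 had negative differences, as did 9275 of all 14748 genes tested. Under median-of-ratios scaling the directions of the 5 called genes stayed and Yap1 no longer passed (adjusted p = 0.0522). Inside the cluster, the remaining family genes were scarce. Mmp1b, which overlaps Mmp12, was listed at 0 in unwounded corneas. It stood at 2.55 and 0.26 TPM after the wound and at 1.36 and 2.08 TPM with RNase III (wound difference not past the threshold, limma adjusted p = 0.183). Of its 31-base words 29% occur in other genes of the family, with 20.7% in Mmp1a, so its levels are uncertain. Mmp1a, annotated as a polymorphic pseudogene, also had 0 in unwounded corneas and at most 1.24 TPM elsewhere. Mmp7, Mmp20 and Mmp27 stayed below 1 TPM in every library.

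**Figure D4:**
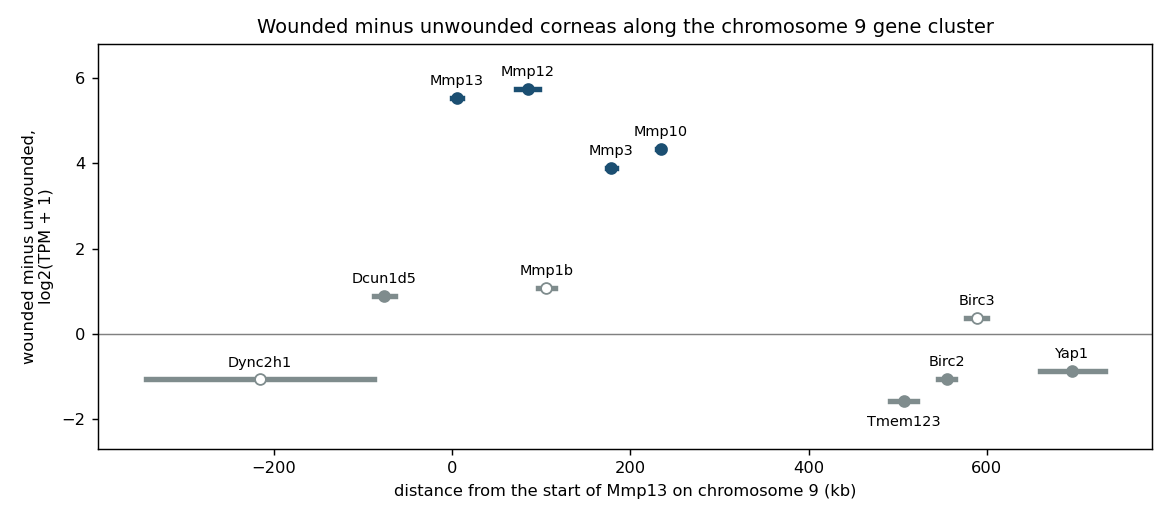
Wounded minus unwounded corneas on the log2(TPM + 1) scale for the listed genes around the cluster that were tested (Pdgfd lies farther away and is not drawn), against the distance in kb from the start of Mmp13; bars show gene lengths, blue marks members, and filled points passed (limma adjusted p under 0.05). Mmp13, Mmp12, Mmp3 and Mmp10 lie between 3.90 and 5.75, and the flanking genes between -1.57 and 0.89.

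Elsewhere in the family, 7 of 15 further genes were tested, of which 1 rose and 1 fell with the wound. Mmp19, a secreted protease, went from 0.85 and 1.63 to 10.78 and 5.79 TPM and rose by 2.02 (SE 0.43, limma adjusted p = 0.0316). Mmp15, a membrane-anchored relative of Mmp14, went the other way, from 16.01 and 16.51 to 3.17 and 5.82 TPM, and fell by 1.69 (SE 0.36, adjusted p = 0.0313). Mmp28, a secreted member of epithelia, had 15.08 and 15.23 TPM before and 13.61 and 11.94 TPM after the wound, which did not pass (adjusted p = 0.582).

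Inhibitors moved apart from each other. Timp1, the inducible inhibitor, had 7.08 and 4.75 TPM in unwounded and 1993.78 and 481.2 TPM in wounded corneas, a rise of 7.17 (SE 0.81, limma adjusted p = 0.00994). In wounded replicate 1 it lay just below Mmp3 and in replicate 2 above every member. Per transcript of the 8 proteases it went from 0.0254 and 0.0256 to 0.694 and 0.716, so that the libraries lay close together within these groups, unlike the RNase III libraries at 0.336 and 0.760. Timp3, an inhibitor bound to the matrix, fell by 1.37 (SE 0.26, limma adjusted p = 0.0252), and Timp2, which joins Mmp14 in the activation of the Mmp2 proenzyme, had 102.51 and 97.59 TPM before and 98.91 and 88.43 TPM after the wound (adjusted p = 0.703). Of 6 inhibitors 5 were tested, with 1 rise and 1 fall.

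Activators of proenzymes, 15 listed genes, had 10 tested, of which 7 had positive and 3 negative differences. Of these 4 rose and none fell: the urokinase receptor gene Plaur by 5.58 (SE 0.48, limma adjusted p = 0.00625), the urokinase gene Plau by 3.09, Furin, the convertase that activates Mmp14, by 1.26, and Plat by 1.11. Plasminogen itself, Plg, was at 0.02 TPM or less in every library. Of 14 inducers 13 were tested and 5 rose, among them Il1b by 7.95 and Areg by 2.44. Il6, listed at 0 in both unwounded libraries, had 19.29 and 17.07 TPM, and Lif went from 0.48 and 1.35 to 10.97 and 8.36 TPM. Tnf had 7.26 and 14.32 TPM before and 17.15 and 10.66 TPM after the wound, and its groups overlapped.

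Among 18 transcription factors of metalloproteinase promoters, all tested, 5 rose and 1 fell with the wound, with a median of 0.89 beside -0.26 for all genes. The AP-1 subunit gene Fosl1 went from 0.26 and 0.34 to 50.74 and 31.53 TPM, a rise of 4.98 (SE 0.30, limma adjusted p = 0.00182), and another subunit, Fosl2, fell by 1.34 (adjusted p = 0.0167). Cebpb and Etv4 rose by 3.27 and 2.05. Runx2, a known activator of Mmp13 in cartilage, had 1.57 and 0.88 TPM in unwounded corneas, 1.93 and 1.23 TPM after the wound and 4.92 and 4.14 TPM with RNase III, which passed in no comparison (adjusted p = 0.667 for the wound, 0.327 for RNase III against wounded and 0.0573 for RNase III against unwounded).

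RNase III against wounded corneas asks how the proteases of injured tissue differed after the injection of the enzyme. For Mmp2 and Mmp10 both RNase III values lay below both wounded values, and the other 6 members overlapped. Over all genes tested, 14.3% lay lower without overlap and 25.9% higher. No member passed, and neither did any other gene, with 0.0% of genes called in each direction (limma; 1838 genes had an unadjusted p under 0.05).

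Mmp2 had 15.8 and 51.75 TPM with RNase III against 136.46 and 105.87 TPM in wounded corneas, a log2 difference of -2.03 (SE 0.50, interval -3.23 to -0.82, limma adjusted p = 0.302). Per Mmp14 transcript Mmp2 stood at 0.0985 and 0.202 with RNase III, below 0.681 and 0.744 in wounded and 0.592 and 0.501 in unwounded corneas. Keratocyte markers, of which Aldh3a1 is also a gene of the corneal epithelium, were lower in 9 of 9 cases, 7 without overlap. Of all genes 14.3% lay lower without overlap. The marker median was -0.95 beside 0.09 for all genes. The list summed to 7130 and 5807 TPM with RNase III and to 8720 and 12205 TPM in wounded corneas, and none was at 0. The keratocyte sum, which includes Aldh3a1, was higher in RNase III replicate 1, which had less Mmp2. Markers of differentiated corneal epithelium, a list that also holds Aldh3a1, had the same order, at 25857 and 17764 TPM. The keratocyte sum therefore need not measure stroma. Col1a1, the main fibrillar collagen chain, was singled out after its values were seen. RNase III replicate 1, the library with the least Mmp2, also had the least Col1a1, at 6.78 TPM against 108.33 TPM in replicate 2. It was also the library with the fewest genes above 0. The part of stromal tissue in the Mmp2 difference was not tested.

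Mmp10 had 10.3 and 12.21 TPM with RNase III against 60.38 and 20.86 TPM, a difference of -1.58 (SE 0.49, interval -2.76 to -0.41, limma adjusted p = 0.33). Mmp13 had 27.92 and 33.18 TPM, both close to wounded replicate 2 and below wounded replicate 1, and the interval of its difference, -2.34 to 0.32, takes in a fall as well as no change (limma adjusted p = 0.494). Without wounded replicate 1 the Mmp13 difference was -0.09 and that of Mmp3 -0.13. Mmp3 had 250.41 and 361.91 TPM on either side of wounded replicate 2, with a difference of -1.45 (interval -3.57 to 0.67, limma adjusted p = 0.533).

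Mmp12 differed widely between the RNase III libraries, at 16.95 and 115.91 TPM, and its difference of -1.14 (interval -3.81 to 1.53, limma adjusted p = 0.694) turned to 0.32 without wounded replicate 1 and to 0.21 without RNase III replicate 1. Macrophage markers were lower in 11 of 11 tested members, 10 without overlap, where 14.3% of all genes lay lower without overlap. Their median was -1.51 beside 0.09 for all genes, none passed, and they summed to 201 and 331 TPM. Within this group the library with more Mmp12 also had more of them. Between groups that order did not hold: wounded replicate 2 had 586 TPM of markers and 35.73 TPM of Mmp12. Of the 12 markers 1 was at 0 in RNase III replicate 1. The part of macrophages in the Mmp12 difference was not tested. Mmp8 had 0.09 and 0.93 TPM. Mmp9, at 8.76 and 8.51 TPM, lay between the wounded values, with a difference of 0.25 (interval -0.84 to 1.35, adjusted p = 0.835). Mmp14 had 160.33 and 256.75 TPM and a difference of 0.26 (interval -0.41 to 0.93, adjusted p = 0.715). Without wounded replicate 2 the Mmp9 difference was -0.41, and without RNase III replicate 2 that of Mmp14 was -0.07.

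**Figure D5:**
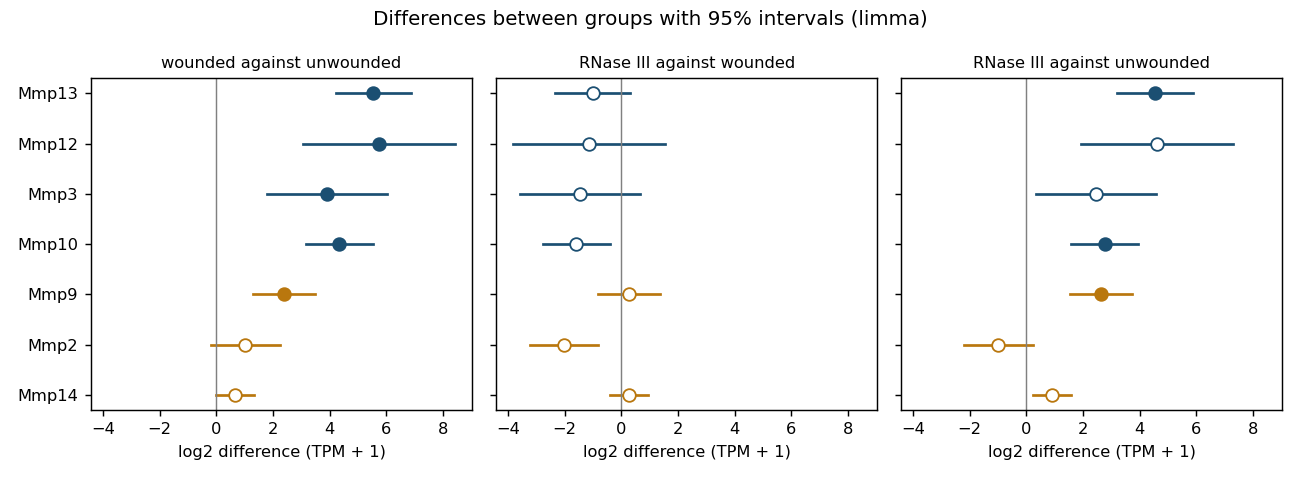
Log2 differences of the 7 tested genes in the 3 comparisons, with 95% intervals; blue marks chromosome 9 genes, orange the others, and filled points passed (limma adjusted p under 0.05). The middle panel has no filled point, and the intervals of Mmp10 and Mmp2 are the ones there that do not reach 0.

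The sums behind these differences were 491 and 841 TPM for the 8 genes with RNase III, of which chromosome 9 genes made up 62.3% in both libraries, close to the 62.5% of wounded replicate 2. Timp1 had 164.83 and 638.86 TPM there. Among 14 tested substrates of the listed 15, 10 had lower and 4 higher values, with 6 lower and 4 higher without overlap. Over all genes tested, 14.3% lay lower and 25.9% higher without overlap, so the 4 higher substrates were near that share. They include Lama3 and Lamb3, which encode laminin chains of the epithelial basement membrane, and Col17a1, a collagen of hemidesmosomes. Lama3 had 214.09 and 227.16 TPM against 130.17 and 79.44 TPM in wounded corneas (log2 difference 1.11, SE 0.26, limma adjusted p = 0.302). Col1a1 stood at -2.71 (SE 1.06, adjusted p = 0.379), and neither value passed.

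RNase III against unwounded corneas asks which proteases of the injured tissue were still apart from intact cornea after the enzyme. This comparison shares its groups with the other ones. Mmp13, Mmp10 and Mmp9 rose, by 4.54 (SE 0.55, limma adjusted p = 0.0141), 2.76 (SE 0.49, adjusted p = 0.03) and 2.64 (SE 0.46, adjusted p = 0.0283), where 4.72% of all genes rose and 4.58% fell. Mmp13, Mmp10 and Mmp9 reached the filter on low values through the injured libraries. Here too they had to differ in some measure, and their count is a description. Mmp12 did not pass at 4.61 (SE 1.12, adjusted p = 0.0511) and passed with a pseudocount of 0.1, with scaling, with only the 2 groups, and without wounded replicate 1 or 2. Mmp3 stood at 2.44 (SE 0.89, adjusted p = 0.109) and Mmp14 at 0.92 (SE 0.28, adjusted p = 0.0789).

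Of the 8 genes, Mmp2 was the 1 with a lower mean than in unwounded corneas, at -0.99 (interval -2.20 to 0.21, limma adjusted p = 0.211), and its groups overlapped. The other 7 were higher without overlap, among them Mmp8, which was not tested and had 0.09 TPM in RNase III replicate 1 against 0 in unwounded corneas. Mmp13, Mmp12, Mmp10 and Mmp9 reached the filter through the injured libraries, so this count too is a description. Of all tested genes 26.3% were higher without overlap, while 39.7% were lower. Of the inhibitors Timp1 rose by 5.58, and Reck, Timp3 and Timp2 fell by 1.57, 1.44 and 0.89; the call of Timp2 was lost with median-of-ratios scaling (limma adjusted p = 0.057). Of the transcription factors 8 of 18 rose and 1 fell, with Fosl1 at 4.88 and Runx1 at 1.97. The calls of Mmp13, Mmp10 and Mmp9 were all lost without either unwounded library (adjusted p from 0.0846 to 0.206) and with no filter on low values (0.0627 to 0.0818). Without RNase III replicate 1 or 2 those of Mmp10 and Mmp9 were lost (adjusted p from 0.0648 to 0.0742) and that of Mmp13 was kept.

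Across the 6 libraries the genes with profiles most like Mmp13 were not members. Likeness was measured as the root-mean-square difference between log2(TPM + 1) profiles, each centred on its own mean, over the 13299 tested genes that are not predicted models. The closest were Cxcl2, a neutrophil chemokine (0.22), Plaur (0.28), Csf3, a neutrophil growth factor (0.31), Il1rl1, the receptor of the alarmin interleukin-33 (0.33), and Chil3, a product of activated macrophages (0.34). Cxcl2 had 3.03 and 3.41 TPM in unwounded corneas, 542 and 97.68 TPM after the wound and 99.61 and 105.9 TPM with RNase III, the order of libraries within each injured group being that of Mmp13. Of the members, Mmp10 was 31st (0.75), Mmp12 41st (0.78), Mmp3 90th (1.04), Mmp9 165th (1.31), Mmp14 1345th (2.11) and Mmp2 4819th (2.48). The order rests on 6 libraries in 3 groups and carries no test.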

How the data were processed

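The authors deposited 1 table of TPM values with 54446 Ensembl gene rows and 1 column per sample, each scaled to the same total. STAR, RSEM, DESeq2 and mm10 are named, without role or version, in the submitters' processing notes; their annotation is not given. Because TPM depends on each library's total, a few abundant transcripts lower all others, and no counting interval can be given. Symbols matched 54409 identifiers, and 37 had none. Coordinates are from GENCODE M21 on GRCm38.

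The 14748 genes that reached 1 TPM in 2 or more samples were fitted, as log2(TPM + 1), in limma 3.58.1 (R 4.3.3) as 3 group means, with a mean-variance trend, two-sided tests and Benjamini-Hochberg adjustment over all genes at 0.05. Residual and prior degrees of freedom were 3 and 3.6. The steps were tested on simulated data. Members and gene lists were chosen with earlier results of these data known, and motifs after the promoters were seen. The 8 members are named in every comparison, up to 4 called genes per list otherwise (or the 2 most abundant), and the 5 profiles closest to Mmp13; Tnf, Plg, Col1a1, Timp2, Runx2, Yap1, Mmp7, Mmp20 and Mmp27 were named after their values were seen. Each result was recomputed with 0.1 as the pseudocount, without the filter, after scaling by median ratios, with the replicate number as a block, on the compared groups alone, without the trend, and without each library in turn.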

Additional observations from a re-analysis of the deposited data

How the results depend on the processing

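None of the 7 tested members changed direction in the 2 comparisons with unwounded corneas under the alternatives run; Mmp8 was fitted only without the filter. Against wounded corneas the reversals came from leaving out a library: Mmp12 then ranged from -2.59 to 0.32, Mmp9 from -0.41 to 0.91 and Mmp14 from -0.07 to 0.60. Without a filter the genes called numbered 444 for the wound and 69 for RNase III against unwounded corneas, where the main counts were 2352 and 1371; more genes were then tested (24958). The wound calls of Mmp12, Mmp3 and Mmp9 were then lost (limma adjusted p = 0.0789, 0.1 and 0.0776). Mmp2 passed for RNase III against unwounded corneas, at -1.82, when RNase III replicate 2 was left out. With 1 library left out the counts ranged from 25 to 3242 for the wound, from 0 to 1 for RNase III against wounded and from 17 to 1283 for RNase III against unwounded. For RNase III against wounded a pseudocount of 0.1 gave 1 call in place of 0. The cause of the other shifts was not tested. Replicate numbers are shared by the groups in the titles only. Deviations of same-numbered libraries correlated at 0.146, 0.103 and -0.0469 across genes. With 2 libraries in a group, differently numbered ones give the same values with the sign reversed. The correlations therefore cannot decide whether samples were paired, and no pairing was taken. With the replicate block 2032, 0 and 1449 genes were called, and no member's call changed. No depth is known, so no detection limit can be set for genes listed at 0.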

Other observations

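Proteases of mast cells that act on metalloproteinases were uneven between the RNase III libraries. The chymase gene Cma1 had between 1.32 and 3.24 TPM and the tryptase gene Tpsb2 between 1.03 and 2.22 TPM in 5 libraries, and both were listed at 0 in RNase III replicate 1. These genes were singled out after their values were seen. RNase III replicate 1 also had the fewest genes above 0, 16751 against 19455 in replicate 2. Of the 15 listed activators 7 were at 0 there and 4 in replicate 2. Zeros of such low genes in that library are therefore uncertain. The ratio of Mmp3 to Mmp10 TPM was 91.3 and 52.1 in unwounded, 34.2 and 15.8 in wounded and 24.3 and 29.6 in RNase III corneas. Both unwounded libraries lay above the other 4. Mmp10 was at 1.07 and 0.58 TPM in the unwounded libraries and shares 11.9% of its 31-base words with Mmp3. The unwounded ratios are therefore uncertain.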
